A study of Mus musculus with 30 samples.

Results

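The 10 genes described here encode the receptor chains through which natural killer (NK) cells of the mouse respond to interleukin-2 (IL-2), IL-7, IL-12, IL-15, IL-18 and IL-21: Il2ra, Il2rb, Il2rg, Il7r, Il12rb1, Il12rb2, Il15ra, Il18r1, Il18rap and Il21r. They were taken by gene symbol from the deposited expression table, where they are 10 of 30587 named entries. All 10 passed the filter on low values and stand among the 16045 genes tested.

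NK cells depend on IL-15 for survival. IL-15 and IL-2 signal through a shared pair of chains, Il2rb and the common gamma chain Il2rg, and the alpha chain Il2ra adds high affinity for IL-2. IL-12 signals through Il12rb1 and Il12rb2 to JAK2, TYK2 and STAT4, and IL-18 through Il18r1 and its accessory chain Il18rap to MyD88. Both cytokines together are a classic stimulus of interferon gamma release by NK cells, and skin-resident CD49a+ innate lymphocytes are told from circulating CD49b+ NK cells by these integrins.

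The series holds 30 libraries in 10 groups of 3, all of NKp46-GFP+ cells sorted from mice that carried a skin graft. In the first model, called B6 here, the recipients were C57BL/6 mice of genotype NKp46iCre/iCre.RosamTmG/mTmG, the graft was m157tgB2m-/- skin, and the cells were taken on day 20. In the second, called F1, the recipients were C57BL/6xBalb/c mice of genotype NKp46+/iCre.Rosa+/mTmG, the graft was m157tgB2m+/- skin, and the day was 10. Each model has CD49b+ cells of blood, spleen and donor skin (the graft) and CD49a+ cells of the graft and of the recipient's own skin.
All groups therefore share the Cre knock-in at the NKp46 locus and the mTmG reporter, which turns from red to green fluorescence in cells that have expressed the Cre, and all come from grafted mice: no ungrafted group is analysed here. Strain, number of knock-in copies, graft genotype and day differ together between the models and cannot be told apart. The sources used here state neither ages nor whether cells of several mice were pooled. Nothing says that the 3 libraries of a group came from separate mice, so a p-value measures the spread between libraries, which may be technical. That spread is 1 estimate per gene shared by all 10 groups. Libraries of a skin group correlated less with each other (r at most 0.739) than those of blood or spleen (at least 0.796).

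Values are the authors' DESeq2-normalized signal, not divided by transcript length. Signal summed to between 3502576 and 5717946 in the 12 blood and spleen libraries and to between 1529124 and 3988756 in the 18 skin libraries. Much of it came from 22 predicted genes (Gm names) of very high signal. They held 79.5% to 85.5% of the sum in blood and spleen and 30.2% to 79.2% in skin. Without them the sums were 691260 to 895724 in blood and spleen and 827796 to 1432843 in skin. A set of 20 genes common to all leukocytes (Ptprc, Coro1a and others) ran from 90.8% to 112% of its mean circulating level in blood and spleen, but from 11.6% to 89.1% in skin. It was under 25% in 6 skin libraries: B6 graft CD49a+ 1 and 3, B6 recipient skin 1 and 3, and F1 recipient skin 2 and 3. Of 10 NK cell markers, 9 fell below spleen in each B6 CD49a+ group, against 1 in B6 graft CD49b+ cells. In F1 the numbers were 2 in graft CD49b+, 7 in graft CD49a+ and 10 in recipient skin. The share of all tested genes called in either direction (limma, adjusted p under 0.05) also differed between these groups. It was 4.07%, 16.3% and 28.8% in B6 graft CD49b+, graft CD49a+ and recipient skin cells and 12.2%, 22.7% and 15.7% in F1. Ncr1, which encodes NKp46, was between 325 and 410 in B6 and between 864 and 1016 in F1 circulating libraries, and between 5.78 and 81.4 in skin. Itga1, which encodes CD49a, overlapped between the sorts: it was 12.05 in B6 graft CD49a+ library 1 and 43.4 in B6 graft CD49b+ library 3. In F1 graft CD49a+ cells markers of other cells rose, 7 of 10 tested macrophage, 5 of 6 neutrophil and 4 of 6 erythroid genes; neutrophil genes summed there to 421, 734 and 10883 and erythroid genes to 15.4, 318 and 41499 (lowest, median and highest library), against at most 18.9 and 35.4 in F1 spleen. Markers also rose in B6: 4 of 10 macrophage, 4 of 5 keratinocyte and 4 of 7 fibroblast genes in graft CD49a+ cells. In B6 recipient skin 3 of 10 macrophage genes did. Fibroblast genes summed to up to 4558 in B6 graft CD49a+ libraries, against at most 122 in B6 spleen. The keratinocyte list summed to between 0.918 and 67.1 in circulating and between 12.2 and 2912 in skin libraries. In bulk samples, fewer cells of a type and less RNA per cell cannot be told apart. Differences from spleen are therefore also given on a leukocyte scale, on which every library is divided by its level of the 20 leukocyte genes. That scale raised the median of all tested genes, from between 0.26 and 0.44 to between 0.92 and 2.28 log2 above spleen. Most calls on it were rises, so a pass there says less about a rise than about a fall.

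The beta and gamma chains shared by the IL-2 and IL-15 receptors and the IL-18 accessory chain were the most abundant receptor messages of circulating cells. Per kilobase of the longest annotated transcript, mean signal in the 12 blood and spleen libraries was 419 for Il2rg, 312 for Il2rb and 178 for Il18rap. It was 82.9 for Il12rb2, 37.1 for Il18r1 and 17.4 for Il12rb1. The 4 lowest were Il15ra at 9.52, Il21r at 6.56, Il7r at 2.33 and Il2ra at 0.648. Library ranges of neighbours in this order did not overlap between Il2rb and Il18rap, Il18rap and Il12rb2, Il12rb2 and Il18r1, or Il18r1 and Il12rb1, but overlapped for every other neighbouring pair. In the 18 skin libraries the mean signal per kilobase was 246 for Il2rg, 213 for Il2rb, 57.3 for Il12rb2, 36.2 for Il18rap, 23.6 for Il21r and 20.3 for Il18r1. It was 12.5 for Il2ra, 10.4 for Il15ra, 10.2 for Il7r and 5.04 for Il12rb1, so that Il2ra moved from the last place and Il12rb1 took it. The skin ranges of all 10 genes were wide, from 0.604 to 20.7 for Il12rb1 and from 0.813 to 50.9 for Il2ra.

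**Figure D1:**
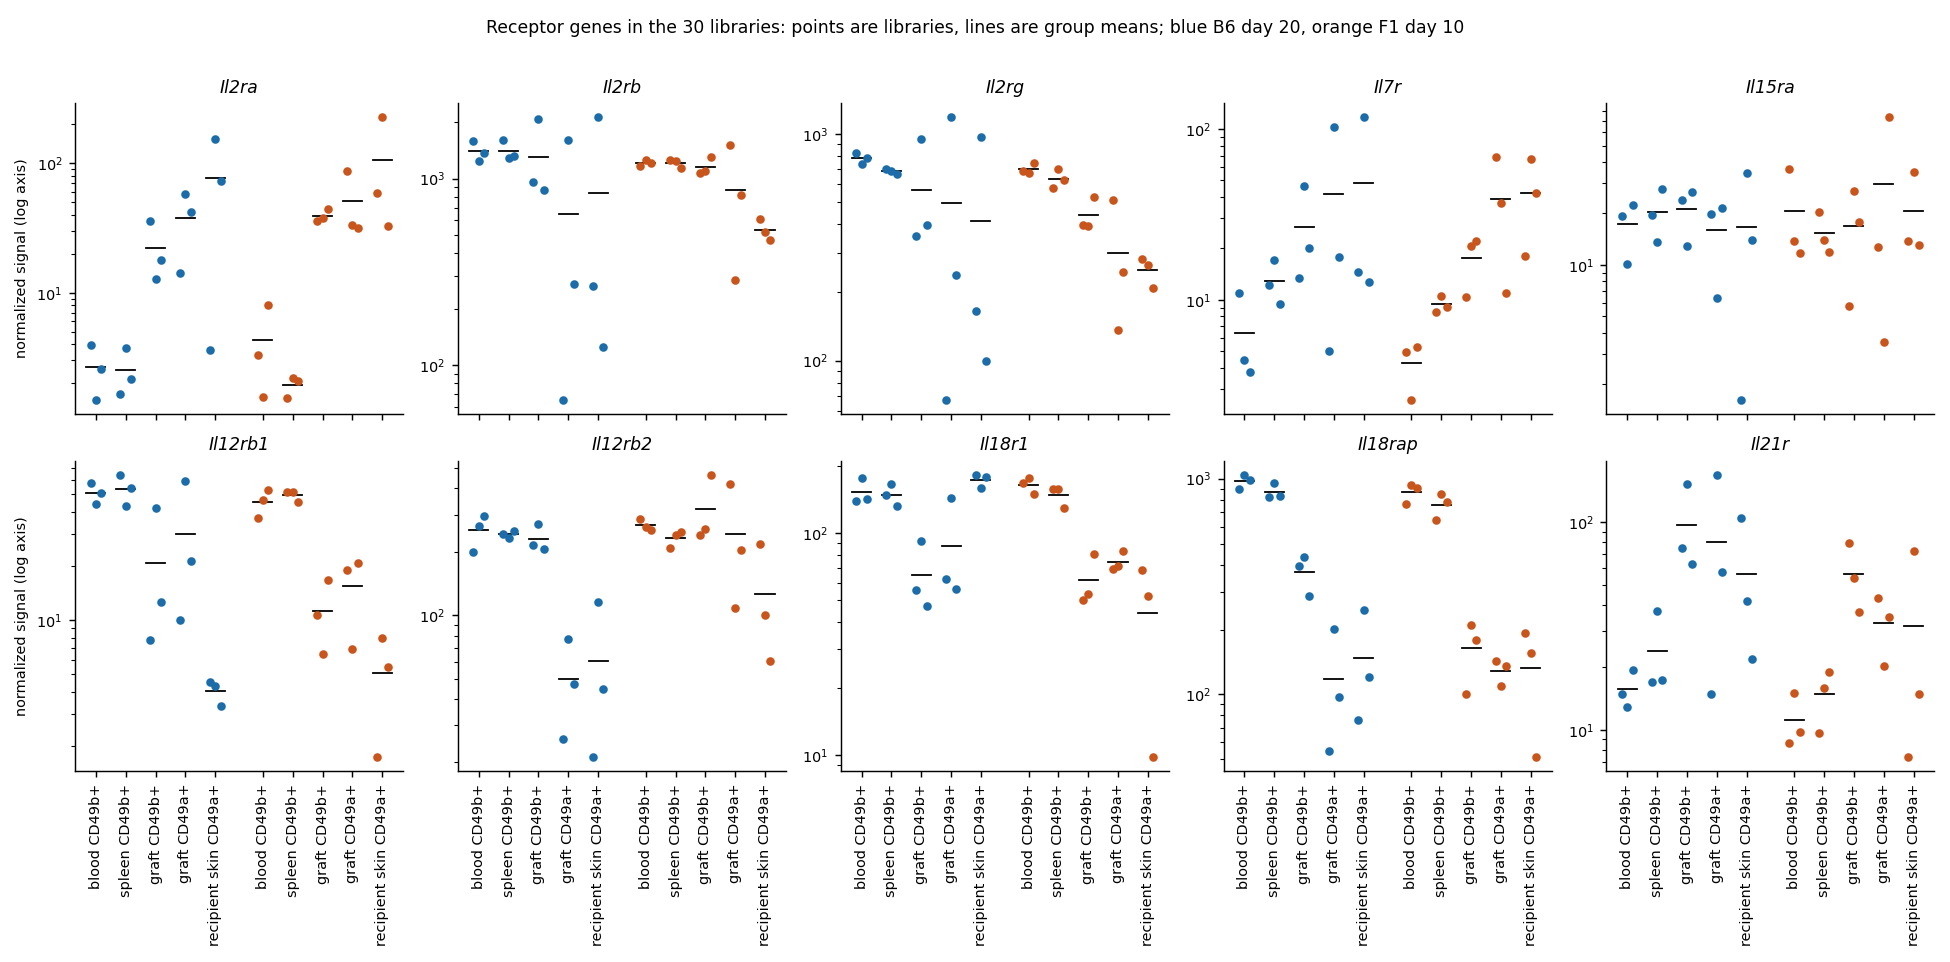
Signal of each of the 10 receptor genes in every library (points, log axis) with group means (lines), for 3 libraries in each of 10 groups, B6 in blue and F1 in orange. Il2ra lies between 1.497 and 7.99 in the 12 circulating libraries and reaches 225 in F1 recipient skin, whereas Il18rap lies between 643 and 1041 in circulating libraries and at or below 432 in all 18 skin libraries.

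Compared with spleen, Il2ra was higher in skin and Il18rap, Il12rb1, Il12rb2 and Il18r1 were lower, each in some or all of the populations. In B6 recipient skin, 4 of the 10 receptors differed (1 higher, 3 lower), where 28.8% of all tested genes did, by limma with Benjamini-Hochberg adjustment over all tested genes at 0.05. The B6 graft CD49a+ cells gave 3 of 10 (1 higher, 2 lower) against 16.3% of all genes, and the B6 graft CD49b+ cells 0 of 10, with 5 at an unadjusted p under 0.05, against 4.07%. In F1, 3 of 10 (1 higher, 2 lower) differed in graft CD49b+ cells against 12.2% of all genes, 3 of 10 (1 higher, 2 lower) in graft CD49a+ cells against 22.7%, and 4 of 10 (1 higher, 3 lower) in recipient skin against 15.7%. At these background rates 1 to 3 of any 10 genes would be called in most of the comparisons, so the counts alone do not set the receptors apart. The median receptor change from spleen was -0.15, -1.02 and -1.16 log2 in B6 graft CD49b+, graft CD49a+ and recipient skin cells and -0.07, -0.46 and -1.13 in F1, where the median of all genes lay between 0.26 and 0.44. These comparisons share their spleen libraries within a model, so their values are set side by side and not combined.

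**Figure D2:**
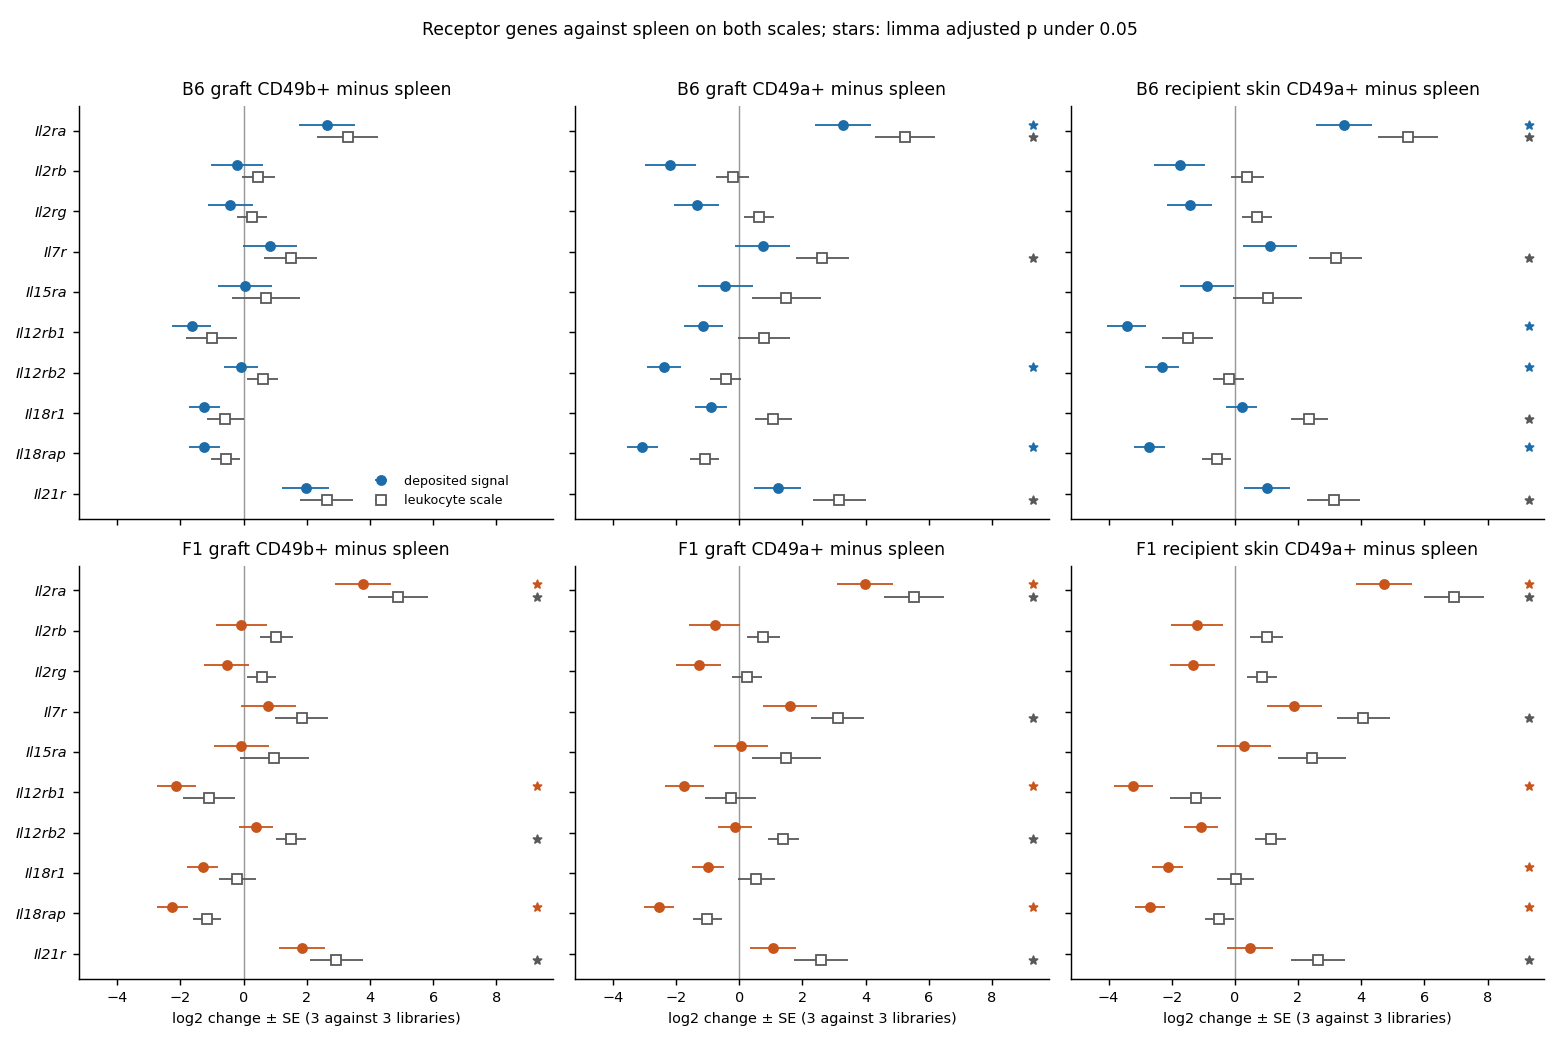
Log2 change from spleen of each receptor gene in the 3 skin populations of both models, with its SE (bars), from the deposited signal (filled circles) and on the leukocyte scale (open squares); stars mark a limma adjusted p under 0.05. On the deposited signal Il2ra lies to the right in all 6 comparisons (2.63 to 4.72) and Il18rap to the left in all 6 (-1.25 to -3.07).

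Il2ra, the alpha chain of the high-affinity IL-2 receptor (CD25), is on chromosome 2 at 11642807-11693193, plus strand (GRCm38). It was nearly absent from circulating cells and higher in skin. Blood signal was 3.97, 1.497 and 2.56 in B6 and 3.31, 1.58 and 7.99 in F1. The spleen signal was 1.66, 3.77 and 2.15 in B6 and 1.53, 2.18 and 2.09 in F1. The B6 graft held 35.8, 12.7 and 17.9 in its CD49b+ libraries and 14.1, 57.5 and 41.9 in its CD49a+ libraries, and B6 recipient skin 3.59, 153 and 72.4. In F1 the values were 35.9, 37.4 and 44.3 in graft CD49b+, 87.4, 33.4 and 31.7 in graft CD49a+ and 59.0, 225 and 32.8 in recipient skin cells. All skin libraries except B6 recipient skin 1 stood above all 12 circulating ones.

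The rise of Il2ra over spleen was 9.82-fold in B6 graft CD49a+ cells (log2 3.30 ± 0.89 SE, adjusted p = 0.0143, limma) and 10.9-fold in B6 recipient skin (3.45 ± 0.89, adjusted p = 0.0066). In F1 it was 13.7-fold in graft CD49b+ (3.78, adjusted p = 0.00763), 15.8-fold in graft CD49a+ (3.99, adjusted p = 0.00291) and 26.4-fold in recipient skin cells (4.72, adjusted p = 0.0014). Fold changes are on the log2(signal + 1) scale, which understates the change of so low a gene. In B6 graft CD49b+ cells the difference of 2.63 log2 did not pass (adjusted p = 0.0864), although its 3 libraries did not overlap with spleen. The same 5 rises passed on the leukocyte scale, with B6 values of 5.24 and 5.48 log2 and F1 values of 4.88, 5.52 and 6.93, and the B6 graft CD49b+ value was 3.29 (adjusted p = 0.075). On that scale the median of all tested genes was 2.21 and 2.25 log2 in the B6 CD49a+ groups. It was 1.22, 1.73 and 2.28 in the F1 groups and 0.92 in B6 graft CD49b+ cells. The B6 graft CD49a+ call was lost when graft CD49a+ library 3 (adjusted p = 0.0639), spleen library 1 (0.058) or spleen library 3 (0.0506) was left out. The B6 recipient skin value was 4.96 log2 without library 1 and 2.42 without library 2, and the F1 recipient skin value 3.95 without library 2 and 5.32 without library 3; these 4 values stayed past the threshold. In a fit of only the groups compared the B6 recipient skin call was lost (adjusted p = 0.117). Quantile normalization ended 3 of the 5 calls, in B6 graft CD49a+ (adjusted p = 0.12), B6 recipient skin (0.0683) and F1 graft CD49b+ cells (0.0706).

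Regulatory T cells also express Il2ra. Foxp3, their defining factor, was at or below 2.83 in 17 of the 18 skin libraries and at 117 in B6 recipient skin library 2, the library with the highest B6 Il2ra. Across the 12 circulating libraries, where Il2ra was low, Foxp3 ran up to 237. The T cell list as a whole summed to between 127 and 442 in circulating and between 118 and 409 in skin libraries, and at most 2 of its 11 tested genes rose in any skin population. One member that stood higher in most skin libraries was Cd3d, with 4.81 to 18.9 in circulating and 12.7 to 137 in skin libraries. The part of T cells, and of the other cells whose markers rose in CD49a+ libraries of F1 and of B6, in the Il2ra values was not tested.

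The Il2ra promoter is shown because this is the receptor gene that rose in skin; it is the 250 bases before the RefSeq start (GRCm38.p6, plus strand, chr2:11642542-11642791), with the match to an ETS core in capitals.
Il2ra: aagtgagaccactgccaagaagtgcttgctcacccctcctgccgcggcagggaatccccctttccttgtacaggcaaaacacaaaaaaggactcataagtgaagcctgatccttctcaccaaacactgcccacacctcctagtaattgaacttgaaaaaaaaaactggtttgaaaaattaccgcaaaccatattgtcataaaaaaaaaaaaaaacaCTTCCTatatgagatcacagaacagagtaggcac
The motifs searched on both strands were TTCNNNGAA (STAT), TGANTCA (AP-1), TCACAC (T-box), TGTGGT (RUNX) and AGGAAG (ETS), and no matches printed here overlap. They occur in 7.02%, 6.75%, 12.3%, 14% and 29.5% of the 32851 mouse promoter windows of that length. A match describes the letters only, and RefSeq windows were found for 8 of the 10 genes; Il2rb and Il12rb1 had none.

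Il2rb, the beta chain shared by the IL-2 and IL-15 receptors (chromosome 15, 78479256-78495271, minus strand), was abundant in circulating cells. Its signal was 1597, 1244 and 1372 in B6 blood, 1607, 1295 and 1317 in B6 spleen, 1175, 1258 and 1208 in F1 blood and 1261, 1245 and 1134 in F1 spleen. In skin the libraries of one group lay far apart: B6 graft CD49a+ libraries held 65.4, 1611 and 273 and B6 recipient skin 266, 2127 and 125. The other skin values were 956, 2088 and 872 in B6 graft CD49b+, 1079, 1093 and 1310.0 in F1 graft CD49b+, 1513, 285 and 816 in F1 graft CD49a+ and 610.2, 515 and 469.6 in F1 recipient skin cells.
The second library was the highest of each B6 skin group. It also had the highest leukocyte level of its group, 89.1%, 69.5% and 68.4% in the B6 graft CD49b+, graft CD49a+ and recipient skin libraries; the part of that level in the result was not tested. No difference of Il2rb from spleen passed in any population. The lowest adjusted p was 0.0648, for a difference of -2.18 ± 0.82 log2 in B6 graft CD49a+ cells, and without library 2 of that group the difference passed. Of the 6 differences, on the leukocyte scale, 5 turned positive and again none passed: Il2rb differed from spleen by 0.46, -0.21 and 0.39 log2 in B6 graft CD49b+, graft CD49a+ and recipient skin cells and by 1.04, 0.76 and 1.01 in F1 (adjusted p from 0.113 to 0.747).

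Il2rg, the common gamma chain (chromosome X, 101264378-101268255, minus strand), moved with Il2rb. It lay between 576 and 823 in the circulating libraries. In the skin groups it was 356, 947 and 398 in B6 graft CD49b+, 67.3, 1182 and 239 in B6 graft CD49a+ and 166, 973 and 99.7 in B6 recipient skin. The F1 values were 397, 394 and 529 in graft CD49b+, 513, 137 and 245 in graft CD49a+ and 280.0, 265 and 209 in recipient skin, all below all 3 F1 spleen libraries. No difference passed, with values from -0.42 to -1.43 log2 and adjusted p from 0.128 to 0.771. Il2rg was, on the leukocyte scale, 0.25 to 0.87 log2 above spleen and again did not pass. The ratio of Il2rb to Il2rg, a quantity chosen after its values were seen and given without a test, stayed between 0.972 and 3.33 in all 30 libraries, with group means from 1.16 in B6 graft CD49a+ to 2.78 in F1 graft CD49a+ cells. The ratio of Il2ra to Il2rb, chosen in the same way, was between 0.00103 and 0.00661 in circulating libraries and between 0.0061 and 0.577 in skin.

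Il15ra, which binds IL-15 with high affinity and presents it to neighbouring cells, lies 12096 bases after Il2ra on chromosome 2 (11705290-11734317, plus strand). It passed the test in no comparison on either scale. Its signal ran from 10.16 to 36.4 in circulating libraries and from 1.62 to 73.0 in skin. The difference from spleen on the deposited scale lay between -0.88 and 0.29 log2, with adjusted p from 0.451 to 0.984. The 95% interval in F1 recipient skin was -1.48 to 2.07 log2, which spans a 2-fold change in either direction. Il15ra stood, on the leukocyte scale, above spleen in all 6 populations, by 0.71 to 1.49 log2 in 5 of them (adjusted p from 0.263 to 0.815) and by 2.44 ± 1.09 in F1 recipient skin (adjusted p = 0.0688), where the scaled values were 32.7, 187 and 113 against 22.5, 14.2 and 11.5 in F1 spleen.

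Il7r (CD127), the IL-7 receptor alpha chain and a marker of many innate lymphocytes other than mature NK cells (chromosome 15, 9505788-9530176, minus strand), was low in circulating cells. Blood held 11.04, 4.46 and 3.77 in B6 and 4.93, 2.61 and 5.30 in F1. Spleen libraries held 12.2, 17.2 and 9.48 in B6 and 8.55, 10.5 and 9.14 in F1. Skin values were 13.4, 46.6 and 20.1 in B6 graft CD49b+, 5.003, 103 and 17.8 in B6 graft CD49a+ and 14.5, 117 and 12.7 in B6 recipient skin. The F1 skin libraries held 10.4, 20.6 and 22.1 in graft CD49b+, 69.0, 37.1 and 10.9 in graft CD49a+ and 18.1, 66.7 and 42.3 in recipient skin. Both F1 CD49a+ groups stood above all F1 spleen libraries, and the B6 groups overlapped with spleen.
No Il7r difference passed on the deposited scale, where the values lay between 0.74 and 1.88 log2 and adjusted p between 0.13 and 0.601. Of the Il7r differences on the leukocyte scale 4 passed, all in CD49a+ cells: 2.62 and 3.19 log2 in B6 graft and recipient skin (adjusted p = 0.0171 and 0.00402) and 3.11 and 4.07 in F1 (adjusted p = 0.00721 and 0.000796). The median of all tested genes there was 2.21 and 2.25 log2 in B6 and 1.73 and 2.28 in F1. In these groups 6041, 6761, 4618 and 6638 of 16045 genes were called on that scale. The ILC3 list, whose cells express Il7r, summed to between 6.16 and 35.4 in circulating and between 36.1 and 241 in skin libraries, with 1 of its 6 genes passing the filter. The ILC2 list summed to between 111 and 286 in circulating and between 31.2 and 426 in skin libraries. The part of either in the Il7r values was not tested.

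Il12rb1, the chain shared by the IL-12 and IL-23 receptors (chromosome 8, 70808449-70821424, plus strand), was lower in both recipient skins and in the F1 graft. Spleen signal was 64.1, 42.9 and 53.9 in B6 and 51.7, 51.7 and 45.3 in F1. Blood lay between 37.0 and 57.8. Recipient skin held 4.54, 4.28 and 3.34 in B6 and 1.74, 7.93 and 5.50 in F1, below every circulating library. The graft values were 7.74, 41.7 and 12.6 in B6 CD49b+, 9.99, 59.4 and 21.3 in B6 CD49a+, 10.7, 6.49 and 16.7 in F1 CD49b+ and 18.9, 6.91 and 20.9 in F1 CD49a+ cells. The second B6 graft library of each sort was close to spleen and the others were not.
The fall from spleen was 10.7-fold in B6 recipient skin (log2 -3.42 ± 0.62 SE, adjusted p = 0.000542, limma) and 9.32-fold in F1 recipient skin (-3.22, adjusted p = 0.00162). It was 4.37-fold in F1 graft CD49b+ (-2.13, adjusted p = 0.0263) and 3.34-fold in F1 graft CD49a+ cells (-1.74, adjusted p = 0.0441), and neither B6 graft group passed (adjusted p = 0.123 and 0.203). Each F1 graft call was lost in 5 of the 6 fits that left out 1 library of its comparison, with adjusted p from 0.0604 to 0.128 in CD49b+ and from 0.0591 to 0.188 in CD49a+ cells, and both were lost under quantile normalization (0.0857 and 0.0811). On the leukocyte scale no Il12rb1 difference passed; the values were -1.5 log2 in B6 and -1.24 in F1 recipient skin (adjusted p = 0.133 and 0.207) and 0.79 in B6 graft CD49a+ cells.

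Il12rb2, the chain that makes the receptor specific for IL-12 and docks STAT4 (chromosome 6, 67291318-67376188, minus strand), was lower in the CD49a+ cells of B6. Its signal was 243, 233 and 249.95 in B6 spleen and between 199 and 295 in B6 blood. B6 graft CD49b+ cells kept that level, at 215, 272 and 205, whereas graft CD49a+ cells held 25.9, 76.8 and 47.1 and recipient skin 21.2, 116 and 44.5, below every circulating library. In F1, spleen held 208, 239.9 and 249, and the skin values of 241, 257 and 463 in graft CD49b+, 418, 108 and 203 in graft CD49a+ and 217, 100.2 and 60.9 in recipient skin cells overlapped with it.
The fall in B6 was 5.22-fold in graft CD49a+ (log2 -2.38 ± 0.54 SE, adjusted p = 0.00542, limma) and 4.95-fold in recipient skin cells (-2.31, adjusted p = 0.00356). No F1 difference passed, with -1.07 log2 (adjusted p = 0.173) in F1 recipient skin. The test of the difference between the models in the recipient skin change did not pass (1.24 ± 0.77 log2, 95% interval -0.33 to 2.81, adjusted p = 0.845). Both B6 calls were lost without the 6 libraries whose leukocyte level was under 25%, at -1.64 log2 (adjusted p = 0.0876) in graft CD49a+ and -1.06 (0.249) in recipient skin cells, which leaves 1 library in each of these groups. On the leukocyte scale the 2 B6 values were -0.43 and -0.19, and Il12rb2 stood above spleen in F1 graft CD49b+ (1.5, adjusted p = 0.0418) and graft CD49a+ cells (1.39, adjusted p = 0.0316). The median of all tested genes on that scale was 1.22 and 1.73 log2 in these F1 groups, with 1880 and 4618 of 16045 called. The B6 recipient skin value was -2.93 log2 without library 2, and in a fit of only the groups compared its adjusted p was 0.0724.

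The Il12rb2 promoter is shown because the CD49b+ and CD49a+ libraries of the B6 graft did not overlap. That difference did not pass the test (adjusted p = 0.128, limma). The window is the 250 bases before the RefSeq start (GRCm38.p6, minus strand, chr6:67376189-67376438), with a STAT match and a T-box match in capitals.
Il12rb2: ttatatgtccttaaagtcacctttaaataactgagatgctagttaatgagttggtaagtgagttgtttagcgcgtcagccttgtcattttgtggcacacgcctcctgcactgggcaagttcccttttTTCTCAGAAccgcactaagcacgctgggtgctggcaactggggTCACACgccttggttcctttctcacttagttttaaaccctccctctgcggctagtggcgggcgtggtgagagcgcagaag

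Il18rap, the accessory chain that IL-18 needs to signal (chromosome 1, 40515362-40551705, plus strand), was the most evenly lowered receptor. Blood held 900.1, 1041 and 983 in B6 and 767, 934 and 909 in F1. Spleen libraries held 826, 955 and 830.4 in B6 and 643, 846 and 781 in F1. The graft libraries held 394, 432 and 287 in B6 CD49b+, 54.9, 201 and 97.4 in B6 CD49a+, 101, 210.2 and 179.7 in F1 CD49b+ and 142, 109 and 136 in F1 CD49a+ cells. Recipient skin held 76.1, 245 and 121 in B6 and 193, 156 and 51.3 in F1. All 18 skin libraries stood below all 12 circulating ones.
The fall from spleen was 8.39-fold in B6 graft CD49a+ cells (log2 -3.07 ± 0.49 SE, adjusted p = 0.000536, limma) and 6.57-fold in B6 recipient skin (-2.72, adjusted p = 0.000497). In F1 it was 4.79-fold in graft CD49b+ (-2.26, adjusted p = 0.00412), 5.82-fold in graft CD49a+ (-2.54, adjusted p = 0.000848) and 6.45-fold in recipient skin cells (-2.69, adjusted p = 0.00109). The B6 graft CD49b+ value of -1.25 did not pass (adjusted p = 0.136). Without the 6 libraries of low leukocyte level the 6 differences were -1.25 to -2.54 log2. Those of both graft CD49b+ groups and of F1 graft CD49a+ cells were unchanged, since none of their libraries was left out. The values shrank on the leukocyte scale to between -1.16 and -0.49 and none passed (adjusted p from 0.0547 to 0.565); each remained below the median of all genes on that scale, which was positive.

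Il18r1, the chain that binds IL-18 (chromosome 1, 40465552-40500854, plus strand), ends 14507 bases before Il18rap and was not lowered with it in B6 recipient skin. Circulating libraries held between 130.3 and 177. B6 recipient skin stayed at that level, with 183, 159 and 179, whereas F1 recipient skin held 68.7, 52.2 and 9.83. The graft values were 55.4, 92.3 and 46.9 in B6 CD49b+, 62.0, 144 and 55.9 in B6 CD49a+, 50.04, 53.2 and 81.0 in F1 CD49b+ and 69.1, 71.3 and 82.8 in F1 CD49a+ cells.
Of the Il18r1 differences, 1 passed: the 4.37-fold fall in F1 recipient skin (log2 -2.13 ± 0.49 SE, adjusted p = 0.00559, limma), which was -1.30 without library 3, whose leukocyte level was 11.6%. In a fit of only the groups compared its adjusted p was 0.111. B6 recipient skin differed from spleen by 0.22 log2 (95% interval -0.80 to 1.23). The difference between the models in this change was -2.35 ± 0.70 log2 (95% interval -3.78 to -0.91), and it did not pass after adjustment (adjusted p = 0.468). Il18r1 was, on the leukocyte scale, 2.36 log2 above spleen in B6 recipient skin (adjusted p = 0.00274) and 0.03 in F1 recipient skin. In the graft groups it lay there between -0.58 and 1.07 log2 and did not pass. The median of all tested genes on that scale was 2.25 log2 in B6 and 2.28 in F1 recipient skin. There 6761 and 6638 of 16045 genes were called, so the B6 value of Il18r1 was near that median.

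The ratio of Il18rap to Il18r1 within a library does not depend on the library's scale; it was chosen after its values were seen and is a description with no test. In B6 it averaged 6.43 in blood, 5.84 in spleen and 5.97 in graft CD49b+ cells, with no library below 4.68. It averaged 1.34 in B6 graft CD49a+ cells (0.886 to 1.74) and 0.878 in B6 recipient skin (0.415 to 1.54). In F1 it averaged 5.29 in blood, 5.12 in spleen, 2.73 in graft CD49b+, 1.74 in graft CD49a+ and 3.67 in recipient skin cells. The ratio of Il12rb2 to Il12rb1, chosen likewise, averaged between 4.62 and 6.06 in the 4 circulating groups, 2.03 in B6 graft CD49a+ cells and between 15.02 and 49.6 in the other skin groups, where it ran from 6.52 in B6 graft CD49b+ and 4.68 in B6 recipient skin libraries up to 125 in F1 recipient skin.

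**Figure D3:**
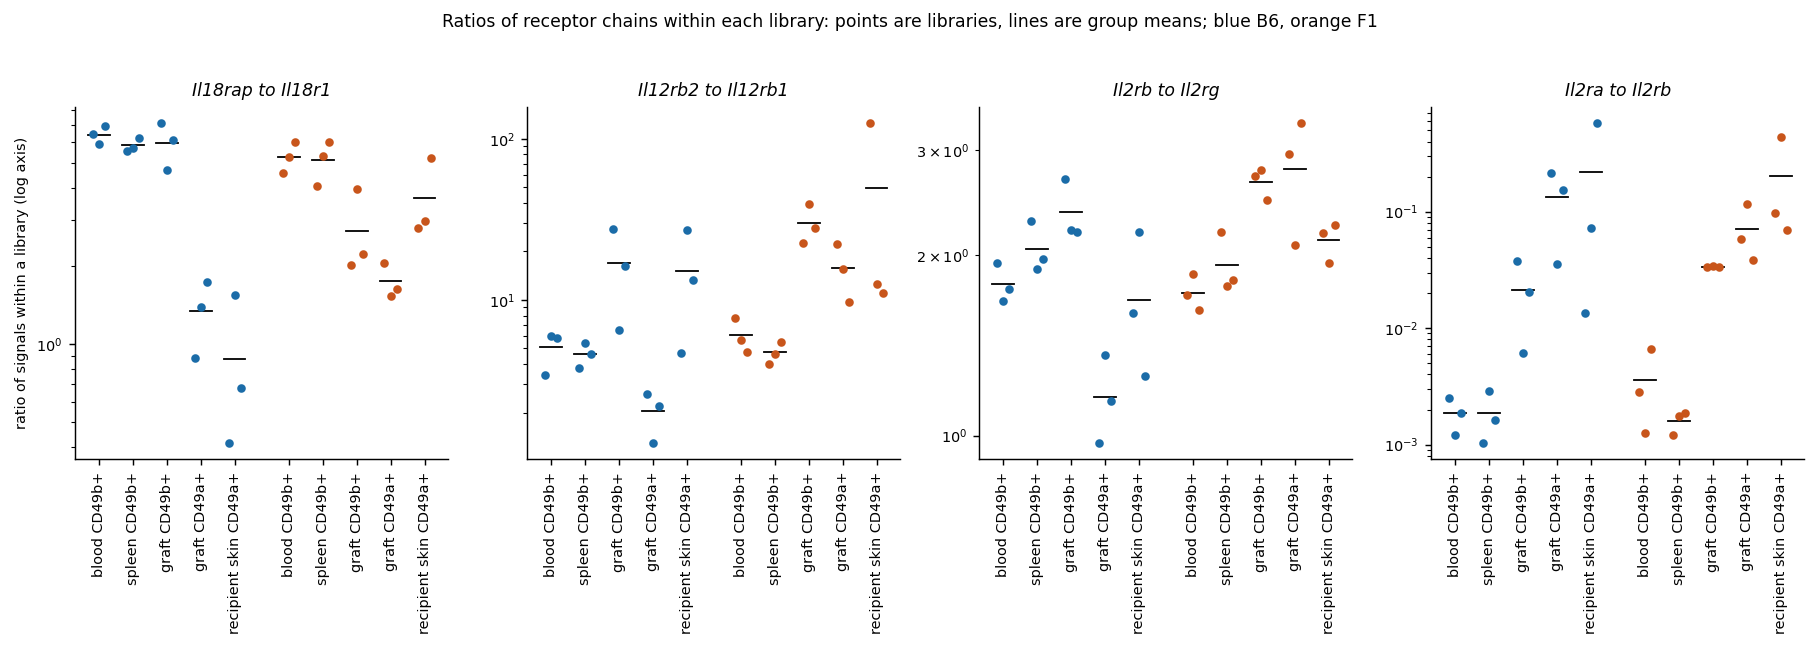
Ratio of receptor chains in every library (points, log axis) with group means (lines), B6 in blue and F1 in orange. The Il18rap to Il18r1 ratio is at or above 4.06 in all 12 circulating libraries, between 4.68 and 7.12 in B6 graft CD49b+ and at or below 1.74 in the CD49a+ libraries of B6.

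The promoters of the IL-18 receptor pair are shown because Il18rap passed as lower in B6 recipient skin and its neighbour Il18r1 did not. In F1 recipient skin both passed as lower. Each is the 250 bases before a RefSeq start on the plus strand (GRCm38.p6). Il18r1 has 3 such windows: the first (chr1:40465302-40465551) and the second hold none of the 5 motifs, and the third (chr1:40465756-40466005) holds 2 STAT matches and 1 ETS match. The Il18rap window (chr1:40515112-40515361) holds 2 ETS matches. Matches are in capitals, and which Il18r1 start these cells use was not tested.
Il18r1 start 1: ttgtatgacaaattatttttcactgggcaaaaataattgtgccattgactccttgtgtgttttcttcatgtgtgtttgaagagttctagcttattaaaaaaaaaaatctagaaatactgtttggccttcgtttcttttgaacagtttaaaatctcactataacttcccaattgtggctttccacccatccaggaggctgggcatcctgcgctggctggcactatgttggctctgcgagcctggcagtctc
Il18r1 start 3: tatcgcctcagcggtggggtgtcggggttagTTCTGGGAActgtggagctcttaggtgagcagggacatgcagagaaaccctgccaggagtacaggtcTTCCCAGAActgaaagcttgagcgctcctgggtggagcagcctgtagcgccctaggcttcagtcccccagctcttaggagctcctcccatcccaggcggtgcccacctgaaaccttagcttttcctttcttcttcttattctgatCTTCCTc
Il18rap: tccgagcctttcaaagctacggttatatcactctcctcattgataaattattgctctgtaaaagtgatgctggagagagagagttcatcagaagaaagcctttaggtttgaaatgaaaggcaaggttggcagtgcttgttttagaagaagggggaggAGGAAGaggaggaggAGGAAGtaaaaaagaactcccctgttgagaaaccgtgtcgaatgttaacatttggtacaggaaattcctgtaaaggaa

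Il21r, which pairs with the common gamma chain to bind IL-21 (chromosome 7, 125603429-125633570, plus strand), was higher in the graft CD49b+ cells without passing the test. Spleen held 17.1, 37.1 and 17.4 in B6 and 9.64, 15.9 and 19.0 in F1. Graft CD49b+ cells held 75.2, 152 and 63.1 in B6 and 78.8, 53.8 and 36.8 in F1, above every circulating library of their model. CD49a+ values were 14.9, 169 and 57.5 in the B6 graft, 104, 41.8 and 21.9 in B6 recipient skin, 43.1, 20.4 and 34.8 in the F1 graft and 7.396, 72.7 and 14.9 in F1 recipient skin.
The differences in graft CD49b+ cells were 1.96 ± 0.74 log2 in B6 (adjusted p = 0.121, limma) and 1.84 ± 0.74 in F1 (adjusted p = 0.0989). In the fit without the 6 libraries of low leukocyte level both differences passed. None of those libraries belonged to graft CD49b+ or spleen, so the differences were unchanged and only the spread shared by all groups moved. On the leukocyte scale the 2 CD49a+ groups of B6 (3.16 and 3.13 log2, adjusted p = 0.00626 and 0.00471) and all 3 skin groups of F1 passed (2.93, 2.59 and 2.63, adjusted p from 0.0152 to 0.0242). The median of all tested genes there was 2.21 and 2.25 log2 in B6 and 1.22, 1.73 and 2.28 in F1. In these groups 6041, 6761, 1880, 4618 and 6638 of 16045 genes were called on that scale.

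No receptor passed the test between the sorts of a graft, between graft and recipient skin CD49a+ cells, or between spleen and blood. B6 graft CD49a+ against CD49b+ cells gave 0 of 10 by limma after adjustment, with 3 at an unadjusted p under 0.05, where 0.0125% of all genes passed. The lowest adjusted p was that of Il12rb2 (-2.30 ± 0.54 log2, adjusted p = 0.128), followed by Il18rap (-1.82 ± 0.49, adjusted p = 0.236), and neither gene overlapped between the sorts. The share of all tested genes without overlap was not counted. Without graft CD49a+ library 2, Il2rb, Il12rb2 and Il18rap passed, 3 of 10. In F1 the same comparison gave 0 of 10, with 0 at an unadjusted p under 0.05, against 0.00623% of all genes.
CD49a+ cells of the graft against those of recipient skin gave 0 of 10 in B6, with 2 at an unadjusted p under 0.05, against 0.224% of all genes. Il12rb1 had the lowest adjusted p (2.29 ± 0.62 log2 higher in the graft, adjusted p = 0.116), and it passed without recipient skin library 2. In F1 the comparison gave 0 of 10, with 2 at an unadjusted p under 0.05, against 0.0249% of all genes. Spleen against blood gave 0 of 10, with 0 at an unadjusted p under 0.05, in B6 and in F1, where 0.00623% of all genes passed in each. By limma on the leukocyte scale the comparisons of graft sorts and of graft with recipient skin also gave 0 of 10 each, with 4 and 2 at an unadjusted p under 0.05 in B6 and 0 and 0 in F1; the lowest adjusted p was 0.245, for Il12rb1 between B6 graft and recipient skin (2.28 log2).

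Between the models the receptors did not pass in any test. F1 against B6 blood and spleen cells gave 0 of 10, with 0 at an unadjusted p under 0.05 by limma, against 0.343% of all genes, and the 95% interval was -0.90 to 0.52 log2 for Il18rap and -0.66 to 0.78 for Il18r1. That fit shares its spread with the skin groups. Over all genes it called 55 in this comparison, and a fit of only these groups called 338. The change from spleen to graft CD49b+ cells differed between models for 0 of 10, with 0 at an unadjusted p under 0.05, against 0% of all genes. The change from spleen to recipient skin differed for 0 of 10, with 1 (Il18r1) at an unadjusted p under 0.05, against 0.0125%.

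The genes whose signal followed each receptor most closely over the 30 libraries are given as a description; r is Pearson's on log2(signal + 1) among 7642 genes. These libraries share their leukocyte level, which moved many genes together. Il2rb had its highest r with Selplg (0.95), the selectin ligand PSGL-1, then with Il2rg (0.95) and Prkch (0.94), and Il2rg with Klrc1 (0.95), which encodes the NK receptor NKG2A. Il18rap followed Atp2a3 (0.96), Myo1f (0.95) and Tmem37 (0.94), and Il12rb2 followed Cd53 and Stat4 (0.90 each), the latter the transcription factor that IL-12 activates. Il12rb1 followed F2r (0.87) and Elmo2 (0.86), and Il18r1 followed Vav1 (0.85), Plscr4 and Dock5. Il2ra followed Camk4 (0.88), Spsb1 and Pde4b (0.87 each), Il7r followed Rgs1 (0.81), Odc1 and Tnfaip3, and Il21r followed Dgat1 (0.76), Homer1 and Nr4a2. Il15ra had no close partner, with a highest r of 0.67 for Wdr82.

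Of the JAKs, STATs and IL-18 adaptors that act below these receptors (18 genes, all tested), 7 fell in B6 recipient skin and 5 in B6 graft CD49a+ cells with none higher, where 28.8% and 16.3% of all tested genes were called. In B6 graft CD49b+ cells 1 rose, against 4.07%. In each F1 skin population 1 rose and 2 fell, against 12.2%, 22.7% and 15.7% of all genes in graft CD49b+, graft CD49a+ and recipient skin cells, so that the F1 counts were near the background. The median change of the 18 genes was -1.73 log2 in B6 recipient skin and -0.83 in F1 recipient skin, where all tested genes had 0.40 and 0.35.
Stat3, which carries IL-21 and IL-10 signals, was between 130.2 and 257 in spleen of both models and between 667 and 1019 in the graft CD49b+ libraries. It rose 4.63-fold in B6 graft CD49b+ cells (log2 2.21, adjusted p = 0.016, limma) and 5.38-fold, 4.13-fold and 4.11-fold in the graft CD49b+, graft CD49a+ and recipient skin cells of F1. In F1 graft CD49a+ cells macrophage, neutrophil and erythroid markers rose too, and their part in the rises of signalling genes there was not tested. In library 2 of that group, where S100a8 (3721), a neutrophil gene, and Hbb-bs (11464), a globin gene, were highest, Stat3 was 350, against 803 and 803 in the others. These markers were chosen after their values were seen, and a relation seen in 1 library was not tested. Jak1, the kinase paired with Il2rb, Il7r and Il21r, fell in 5 of 6 skin comparisons, by 4.79-fold in B6 graft CD49a+ and 5.69-fold in F1 recipient skin cells (log2 -2.26 and -2.51). Tyk2, the kinase bound to Il12rb1, fell in 5 of 6, from between 210.3 and 252 in F1 spleen to between 6.89 and 54.8 in F1 recipient skin libraries (8.18-fold, adjusted p = 0.0018). On the leukocyte scale no Jak1 or Tyk2 fall passed, and all 4 Stat3 rises did (2.89 to 4.25 log2). The median of all tested genes there was between 0.92 and 2.28 log2.

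Of 14 feedback inhibitors, 3 rose in B6 graft CD49b+ cells, 2 rose and 1 fell in B6 graft CD49a+ cells, and 2 rose and 2 fell in B6 recipient skin. In F1, 2 rose and 1 fell in graft CD49b+, 1 rose and 1 fell in graft CD49a+ and 1 rose in recipient skin cells. The shares of all genes called were 4.07%, 16.3% and 28.8% in these B6 groups and 12.2%, 22.7% and 15.7% in F1, so that most of these counts were near or below the background. Cish, a STAT5 target that restrains IL-2 and IL-15 signalling, was 12.6, 15.2 and 14.4 in F1 spleen and 161, 143 and 128 in F1 graft CD49b+ libraries. It rose 9.62-fold there (log2 3.27, adjusted p = 0.00611) and 7.29-fold in F1 graft CD49a+ cells (2.87, adjusted p = 0.00804), where the libraries held 211, 46.1 and 130.2. Socs3, which restrains STAT3, rose 15.7-fold in B6 graft CD49b+ cells, from 13.3 to 44.0 in spleen to 239.9 to 596 (log2 3.98, adjusted p = 0.0302). Tnfaip3, which restrains NF-kappa-B below IL-18 and other receptors, rose in all 3 B6 skin groups by 12.9-fold, 5.99-fold and 6.16-fold, and Nfkbia rose in 5 of the 6 skin comparisons. These rises of Cish, Socs3, Tnfaip3 and Nfkbia also passed on the leukocyte scale (2.61 to 4.76 log2), where the median of all tested genes was between 0.92 and 2.28 log2. The part in them of other cells whose markers rose in skin libraries was not tested.

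Among 22 genes that these cytokines are known to control in NK cells, 12 fell in B6 recipient skin and 6 in B6 graft CD49a+ cells with none higher, and 6 fell and 1 rose in F1 recipient skin, where 28.8%, 16.3% and 15.7% of all genes were called. In F1 graft CD49b+ cells 1 rose (Nfil3) and 1 fell (Tbx21), and in F1 graft CD49a+ cells 1 fell (Tbx21), against 12.2% and 22.7%. By limma B6 graft CD49b+ cells gave 0 of 22, with 2 at an unadjusted p under 0.05, against 4.07%. Tbx21, the T-box factor T-bet, fell 12.2-fold in B6 graft CD49a+ and by 6.64-fold, 11.2-fold and 15.6-fold in the graft CD49b+, graft CD49a+ and recipient skin cells of F1 (log2 -2.73, -3.49 and -3.97). Gzma, which encodes granzyme A, fell by 7.79 log2 in B6 recipient skin (adjusted p = 0.000288), and Prf1, which encodes perforin, by 4.75. Bcl2, a survival gene maintained by IL-15, fell 10.6-fold in F1 recipient skin (log2 -3.40), while Nfil3, an NK lineage factor, rose 4.90-fold there (2.29). Of these, the falls of Gzma and Prf1 in B6 recipient skin, of Tbx21 in B6 graft CD49a+ and both F1 CD49a+ groups and the rises of Nfil3 passed on the leukocyte scale, and those of Bcl2 (adjusted p = 0.0993) and of Tbx21 in F1 graft CD49b+ cells (0.0846) did not. The Nfil3 rises there were 3.52 and 4.49 log2 in F1 graft CD49b+ and recipient skin cells, where all tested genes had medians of 1.22 and 2.28. On the deposited scale Tbx21 also passed as lower in B6 recipient skin (log2 -2.30). Bcl2 did so in B6 graft CD49a+ and recipient skin cells (-1.85 and -2.00). Prf1 did in B6 graft CD49a+ and F1 recipient skin cells (-3.11 and -3.34), and Gzma in F1 recipient skin (-4.67).

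Other cytokine receptors moved in both directions: of 19 tested, 3 rose and 5 fell in B6 recipient skin, 2 rose and 2 fell in B6 graft CD49a+ cells, 1 rose in B6 graft CD49b+ cells, and 4, 6 and 5 rose with 1 falling in the F1 graft CD49b+, graft CD49a+ and recipient skin groups. The shares of all genes called were 28.8%, 16.3% and 4.07% in these B6 groups and 12.2%, 22.7% and 15.7% in F1, and the counts in both B6 graft sorts were near them. Tgfbr1, the type I receptor for TGF-beta, rose from 11.8 to 18.6 in B6 spleen to 39.5 to 402 in B6 graft CD49b+ libraries (7.04-fold, log2 2.81, adjusted p = 0.023). Its rise was 10.8-fold in B6 recipient skin and 13.5-fold in F1 graft CD49a+ cells, and each of these rises passed on the leukocyte scale except that in B6 graft CD49b+ cells (adjusted p = 0.0724). The 2 that passed were 5.58 and 5.29 log2 there, where all tested genes had medians of 2.25 and 1.73. On the deposited scale Tgfbr1 also passed as higher in B6 graft CD49a+, F1 graft CD49b+ and F1 recipient skin cells (log2 2.41, 2.50 and 2.72). Il10ra, the IL-10 receptor alpha chain, fell from 250.3 to 288 in B6 spleen to 22.7 or lower in B6 recipient skin (log2 -5.53 ± 0.78, adjusted p = 8e-05), and it fell by 4.89 log2 in B6 graft CD49a+ and by 3.17 in F1 recipient skin cells, the last of which did not pass on the leukocyte scale (adjusted p = 0.351).
Of the 8 ligands and decoys, 6 passed the filter. Il12b, the IL-12 p40 subunit made by myeloid cells, was listed at 0 in every spleen library and at up to 13.3 in skin, and it passed in 3 CD49a+ comparisons. Macrophage markers were summed at 278 to 1007 in circulating and 65.8 to 6480 in skin libraries, and their part in the Il12b values was not tested. Il2 was between 7.83 and 17.8 in B6 spleen and at most 3.45 in B6 skin libraries, and passed as lower in all 3 B6 comparisons on the deposited scale and in none on the leukocyte scale.

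**Figure D4:**
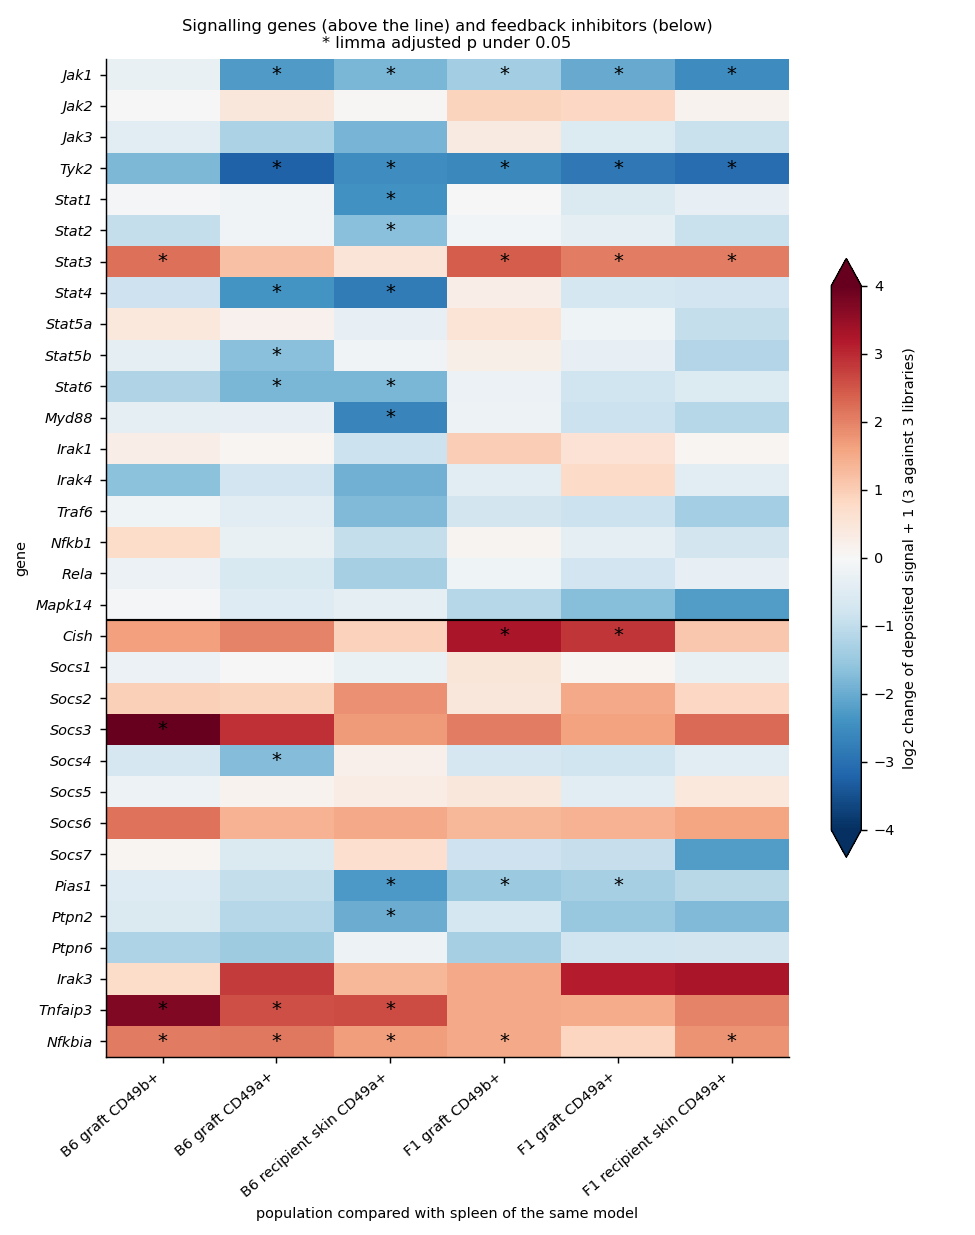
Log2 change from spleen (colour scale, deposited signal) of the 18 signalling genes, above the line, and 14 feedback inhibitors, below it, in the 3 skin populations of both models, with 3 libraries a group. Stars mark a limma adjusted p under 0.05: Stat3 is starred as higher in 4 populations, and Jak1 and Tyk2 as lower in 5 each.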

How the data were processed

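RNA of sorted NKp46-GFP+ cells was sequenced (smartRNA-Seq, per the labels) in 30 libraries. The authors deposited normalized signal values per gene, made with Salmon and DESeq2 on GRCm38 (mm10), per the submitters' processing notes. The sources used here state no versions, annotation or filters. Whole reads could not be recovered from the values (21.2% to 31.8% of low values whole within 0.1 at the best step), so read depth is unknown and no counting interval is given. Of 30616 entries, 1 without a name, 27 whose symbol had turned into a date and 1 with a letter for a value were left out, and 2 unnamed numeric columns were not used.

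Genes that reached a signal of 10 in 3 or more libraries (16045, of them 14150 protein coding) were tested on log2(signal + 1) with limma 3.58.1 in R 4.3.3, with 1 mean per group over all 30 libraries, trended and robust moderation, and Benjamini-Hochberg adjustment over all tested genes at 0.05. Of the 15 comparisons, only B6 graft CD49b+ cells against spleen was checked on simulated data. Each simulated gene had the same spread in every group, so the check does not cover groups of unequal spread. Positions and transcript lengths came from GENCODE M21, promoters from RefSeq (GRCm38.p6). Named besides the receptors were up to 3 genes per pathway list and comparison with the smallest p among those passing, and the 3 genes of highest Pearson r per receptor among tested genes with a mean signal of at least 20, of which 1 is not reported here. A few marker genes (Foxp3, Cd3d, S100a8, Hbb-bs), the other values of a named gene and the chain ratios were chosen after their values were seen. The receptors, the pathway lists and the marker lists were chosen with earlier results of these data known.

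Alternatives were a pseudocount of 8 or 0.25, no filter or a filter of 50, the leukocyte scale, quantile normalization, library weights, a fit of only the groups compared, the replicate number as a block, and leaving out each library. A fit without the libraries under 25% of the circulating leukocyte level was added after seeing the data.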

Additional observations from a re-analysis of the deposited data

Results flagged for a closer look

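On the deposited scale, the Il18r1 libraries of graft and recipient skin CD49a+ cells stood apart in opposite directions in B6 and F1. In B6 every graft library (62.0, 144 and 55.9) was below every recipient skin library (183, 159 and 179), and in F1 every graft library (69.1, 71.3 and 82.8) was above every recipient skin library (68.7, 52.2 and 9.83). On the leukocyte scale they overlapped in both models. The B6 graft held 490, 208 and 295 there, against 1272, 233 and 1489 in B6 recipient skin. The F1 graft held 161, 230 and 297, against 163, 278 and 84.7 in F1 recipient skin. How many of all tested genes stand apart in this way was not counted. The difference of the models in the deposited change between graft and recipient skin was 2.25 log2, F1 minus B6, and this difference was not tested. Neither change passed by limma on its own (-1.12 log2, adjusted p = 0.355 in B6; 1.13 log2, adjusted p = 0.533 in F1). The leukocyte level was under 25% in 2 of the 3 B6 graft CD49a+ libraries, in 2 of 3 B6 recipient skin libraries and in 2 of 3 F1 recipient skin libraries, and its part in the difference was not tested.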

How the results depend on the processing

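Across the 37 receptor values followed, of which 17 were called, a pseudocount of 8 or 0.25, no filter and a filter of 50 each ended 1 call and quantile normalization 5; the replicate block ended and added none of these. The number of receptors past the threshold became 5 in B6 graft CD49b+ cells with library weights and 5 without the libraries of low leukocyte level. It became 7 in B6 graft CD49a+ cells with library weights, 2 in B6 recipient skin when only the groups compared were fitted, and 1 between the B6 graft sorts with library weights. In F1 graft CD49b+ cells it became 1 with quantile normalization and 5 with library weights, with only the groups compared and without the libraries of low leukocyte level; in F1 graft CD49a+ cells it became 6 with library weights and 6 without those libraries. Leaving out each library gave 0 to 1 receptors in B6 graft CD49b+, 2 to 6 in B6 graft CD49a+ and 4 to 6 in B6 recipient skin against spleen, 0 to 3 between the B6 graft sorts and 0 to 1 between B6 graft and recipient skin CD49a+ cells. In F1 it gave 2 to 3 in either graft sort and 4 in recipient skin. The calls over all 16045 genes moved as well. With library weights they were 4002 and 5507 in the B6 graft CD49b+ and CD49a+ groups, against 653 and 2616 in the main fit. In the F1 graft groups they were 5101 and 5733, against 1956 and 3637. With only the groups compared they were 769 in B6 recipient skin, against 4625, and 4372 in F1 graft CD49b+ cells. Without the libraries of low leukocyte level they rose in B6 graft CD49b+ and both F1 graft groups. The cause of these moves was not tested.

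On the leukocyte scale, 12 of the 37 values lost their call, 12 gained one and 5 kept theirs. Of the 37, 4 changed direction: in F1 graft CD49a+ cells Il2rg (0.25 log2), Il12rb2 (1.39) and Il18r1 (0.54), and in F1 recipient skin Il18r1 (0.031). The 37 are the Il2ra values and those called on the deposited signal, on the leukocyte scale or without the libraries of low leukocyte level. Over all receptors and skin populations, 21 of 60 values changed direction, 2 of them called on either scale. Il18r1 in B6 graft CD49a+ cells, for example, went from -0.90 to 1.07 log2. Direction also changed for Il7r in B6 graft CD49a+ cells when 1 library was left out (-0.35 to 1.70 log2, negative without graft library 2), for Il12rb2 in F1 graft CD49a+ cells (-0.64 to 0.33, positive without graft library 2) and for Il21r in F1 recipient skin (-0.41 to 1.16, negative without skin library 2), and for the last also without the libraries of low leukocyte level (-0.87). The genes called higher made up, on the leukocyte scale, 5976 of 6041 calls in B6 graft CD49a+ cells, against 2011 of 2616 on the deposited scale.

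With the replicate number as a block, 4 receptors passed in B6 graft CD49a+ cells (Il2rb in addition), and the other counts were those without the block. The labels do not pair the libraries, and fewer than all same-numbered pairs correlated above 0.1 in their deviations from the group means: 6 of 30 in B6 (highest 0.411, against 0.204 for other pairs) and 0 of 30 in F1. All 6 lay among the B6 skin groups, where the libraries numbered 2 correlated at 0.377 to 0.411 in all 3 pairs. Where a group keeps 1 library, that library is assumed to vary like those of the other groups. Read depth is unknown, and genes of signal below 10, such as Il2ra in circulating cells, sit close to the pseudocount.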
